A study of Mus musculus with 25 samples.

Results

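The 10 genes described here encode parts of the T cell receptor complex and of killer T cells: the receptor constant segments Trac and Trbc2, the CD3 chains Cd3d, Cd3e and Cd3g, the coreceptors Cd4, Cd8a and Cd8b1, and the cytotoxic granule genes Gzmb and Nkg7. They were 10 of the 45706 genes in a count table of mouse hypothalamus, matched by Ensembl identifier, and were selected on their IP and INPUT counts in that table: Trac stood higher in ribosome-bound RNA than in whole tissue, and the other 9 stood lower. For these genes that contrast is therefore given as values with no test, and tests are given for diet, which had no part in the choice.

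In an alpha-beta T cell, rearranged variable, joining and constant segments are spliced into receptor chains, and the pair of chains reaches the cell surface only together with the CD3 chains and the zeta chain (Cd247). CD4 and CD8 bind the major histocompatibility molecule beside the receptor, and cytotoxic cells carry granules that hold granzymes. In a healthy brain T cells are few and lie mostly along vessels and in the meninges, so their transcripts form a small share of RNA from whole tissue. The alpha and delta chains are encoded at 1 shared locus, with the delta constant segment Trdc lying between the variable segments and Trac.

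The mice had the genotype Slco1c1Cre+/-;ROSA26lSlL10aGFP+/-, so that tamoxifen switched on a GFP-tagged ribosomal protein L10a in cells that use the Slco1c1 promoter, which is known mainly from brain endothelium but is not exclusive to it. At 12 weeks of age and 3 weeks after tamoxifen, animals received a high-fat diet (HFD) or a control diet (CD) for 3 days. Each diet had 4 pools of 4 mice, 2 female and 2 male. The tagged ribosomes were precipitated with antibodies to GFP (IP), and RNA was also taken from the lysate (INPUT), giving 4 HFD IP, 4 CD IP, 4 HFD INPUT and 4 CD INPUT libraries; all groups carried both transgenes and received tamoxifen. A second table held 9 libraries of cEND, a mouse brain endothelial line, grown with the glucose transporter inhibitor WZB117 (10 or 0.5 µM) or with DMSO, 3 passages of each.

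Library totals ran from 27.9 to 42.8 M (1e6) estimated counts in the hypothalamus table, and ribosomal and mitochondrial RNA took 7.81 to 10.5% of IP and 32.4 to 39.0% of INPUT counts. Levels are counts per 1000000 (CPM) of a library total scaled by trimmed-mean (TMM) factors. A library with 0 counts of a gene allows a level of up to 0.0678 to 0.114 CPM, the worth of 3 counts, by counting error alone. The labels call the cells endothelial; 10 endothelial marker genes together held 46.4 to 75.4 CPM in IP and 12.6 to 20.7 CPM in INPUT libraries. Astrocyte marker genes, 10 in all, held 44910 to 57120 CPM in IP and 5770 to 7778 CPM in INPUT libraries. Of microglia and macrophage genes, 12 together held 25.9 to 35.8 CPM in IP and 238 to 330 CPM in INPUT libraries.

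The start of the constant segments is shown for the alpha locus, since Trac and Trdc were the receptor constant segments that stood higher in IP. The sequences are from the RefSeq GRCm38 genome, plus strand, 5′ to 3′, and each begins with the last 20 bases of the intron before the first constant exon, whose acceptor AG, the splice site that joins the constant exon to a joining segment, is in capitals.
Trac, chr14:54220501-54220670: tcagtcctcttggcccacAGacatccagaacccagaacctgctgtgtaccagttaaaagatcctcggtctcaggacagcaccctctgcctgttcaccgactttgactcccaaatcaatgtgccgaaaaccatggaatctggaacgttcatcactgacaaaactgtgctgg
Trdc, chr14:54142831-54143000: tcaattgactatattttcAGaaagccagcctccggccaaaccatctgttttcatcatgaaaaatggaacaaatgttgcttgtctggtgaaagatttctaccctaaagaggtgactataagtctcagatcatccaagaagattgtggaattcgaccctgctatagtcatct
Trac counts were whole numbers in all 16 libraries, as were those of Trdc in all but 1. The beta constant segments are shown because they are near copies: their first exons, 375 bases each, differ at 1 base, which is in capitals in these 101 bases around it.
Trbc1, chr6:41538427-41538527: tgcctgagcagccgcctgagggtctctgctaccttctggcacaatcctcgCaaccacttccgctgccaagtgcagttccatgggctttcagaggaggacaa
Trbc2, chr6:41546939-41547039: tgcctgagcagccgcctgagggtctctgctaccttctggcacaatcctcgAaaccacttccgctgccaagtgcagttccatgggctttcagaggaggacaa
The estimated counts of Trbc1 and of Trbc2 were not whole numbers in any of the 16 libraries, so how reads were divided between them is uncertain, and their sum is given beside each.

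Trac, at chr14:54220521-54224206, plus strand, encodes the constant region of the receptor alpha chain and was the most abundant of the 10 genes in IP. The HFD IP libraries 1 to 4 held 26.8, 33.5, 32.6 and 26.6 CPM of Trac, and the CD IP libraries 22.6, 27.6, 25.7 and 20.1 CPM. In INPUT, Trac stood at 4.91, 4.81, 5.86 and 5.57 CPM in the HFD libraries and at 5.60, 4.66, 3.81 and 5.07 CPM in the CD libraries. Every IP library thus lay above every INPUT library, with 637 to 1280 counts in IP and 118 to 222 counts in INPUT. The mean was 26.9 ± 4.52 CPM in IP and 5.04 ± 0.655 CPM in INPUT (SD, n = 8 each), a log2 fold change of 2.41 ± 0.08 (SE) or 5.31-fold. For scale, 30.4% of the 17592 genes tested had all IP libraries above all INPUT libraries, 29.5% had all of them below, and 83.7% passed the test for IP against INPUT in either direction.

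**Figure D1:**
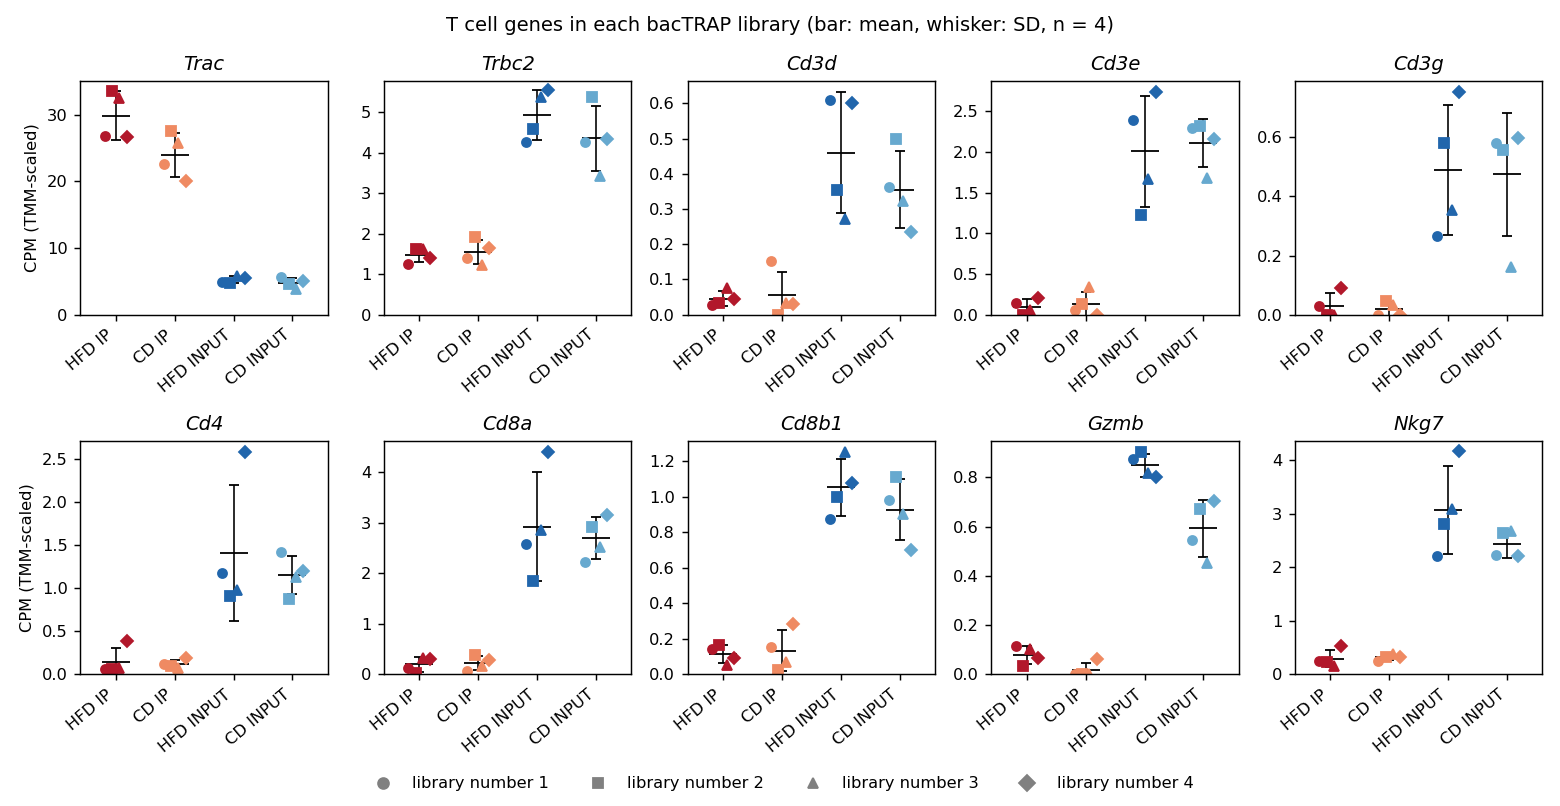
CPM of each of the 10 genes in the 16 libraries, by group; the marker shape is the library number, the bar the mean and the whisker the SD of 4 libraries, cut at 0, and each panel has its own axis from 0. Trac sits between 20.1 and 33.5 CPM in IP and at no more than 5.86 CPM in INPUT, while each of the other 9 genes is lower in every IP library than in every INPUT library.

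Trbc2, at chr6:41546730-41548352, plus strand, encodes a constant region of the beta chain, the partner of the alpha chain. Its IP levels were 1.25, 1.63, 1.63 and 1.40 CPM in HFD and 1.41, 1.93, 1.22 and 1.64 CPM in CD libraries. Its INPUT levels were 4.26, 4.58, 5.37 and 5.54 CPM in HFD and 4.25, 5.39, 3.42 and 4.34 CPM in CD libraries. Every IP library lay below every INPUT library, and the log2 fold change of Trbc2, -1.61 ± 0.12, was the smallest of the 9 decreases. Its near copy Trbc1 held 0.104 ± 0.0548 CPM in IP and 1.28 ± 0.319 CPM in INPUT (SD, n = 8 each), a log2 fold change of -3.55 ± 0.28. Trbc1 did not pass the filter on low counts within the IP libraries, so a lower IP level went with passing it. Together the pair held 1.62 ± 0.271 CPM in IP and 5.93 ± 0.801 CPM in INPUT (SD, n = 8 each).

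Trac and Trbc2 were of similar abundance per base in INPUT and far apart in IP. Trbc1, at 1.71 CPM per kilobase in INPUT and 0.139 in IP, is left out of the ratios given here. Per base of annotated exon, the ratio of Trac to Trbc2 was 15.0 ± 0.752 in HFD IP and 11.8 ± 2.79 in CD IP libraries, against 0.795 ± 0.0464 in HFD INPUT and 0.825 ± 0.139 in CD INPUT libraries (SD, n = 4 each). The lowest ratio in an IP library was 9.07 and the highest in an INPUT library 0.974.

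The CD3 chains carry the signal of the receptor into the cell, and all 3 were close to the detection limit in IP. For these and for the coreceptor and granule genes after them, every IP library again lay below every INPUT library. Cd3e, at chr9:44998740-45009627, minus strand, overlaps the annotated transcripts Gm48719 on the other strand and Gm48720 on its own. Its counts were whole numbers in every library, but how reads in the overlap were assigned is not known. Cd3e held 0.142, 0, 0.0509 and 0.203 CPM in HFD IP and 0.0611, 0.136, 0.339 and 0 CPM in CD IP libraries. Its INPUT levels were 2.40, 1.23, 1.66 and 2.73 CPM in HFD and 2.29, 2.31, 1.68 and 2.16 CPM in CD libraries. The 8 IP libraries held 34 counts of Cd3e in all and the 8 INPUT libraries 548, and the log2 fold change was -4.09 ± 0.36.

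Cd3d, which encodes the delta chain and lies at chr9:44981786-44987339, plus strand, held 0.0284, 0.0332, 0.0763 and 0.0452 CPM in HFD IP and 0.153, 0, 0.0339 and 0.0315 CPM in CD IP libraries. In HFD INPUT it stood at 0.608, 0.355, 0.273 and 0.602 CPM and in CD INPUT at 0.364, 0.498, 0.323 and 0.234 CPM. That is 14 counts in all 8 IP libraries and 107 in INPUT, with a log2 fold change of -2.94 ± 0.43, or of -3.58 without CD IP library 1, which held 5 of the 14. With any 1 library left out, the log2 fold change of Cd3d ran from -3.58 to -2.69. The gamma chain gene Cd3g, at chr9:44969572-44980431, minus strand, held 0.0284, 0, 0 and 0.0903 CPM in HFD IP and 0, 0.0454, 0.0339 and 0 CPM in CD IP libraries, so that 4 of 8 IP libraries had no count. Cd3g stood at 0.266, 0.581, 0.355 and 0.752 CPM in HFD INPUT and at 0.582, 0.557, 0.161 and 0.598 CPM in CD INPUT libraries. The totals were 8 counts in IP and 131 in INPUT, with a log2 fold change of -4.01 ± 0.51, or of -4.74 without HFD IP library 4, which held 4 of the 8. For Cd3g the range with any 1 library left out was -4.74 to -3.81.

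Among the coreceptors, Cd4, the mark of helper T cells and also present on some macrophages, lies at chr6:124864692-124888221, minus strand. Its levels were 0.0568, 0.0664, 0.0763 and 0.384 CPM in HFD IP and 0.122, 0.0908, 0.0678 and 0.189 CPM in CD IP libraries. Its INPUT levels were 1.18, 0.904, 0.982 and 2.58 CPM in HFD and 1.42, 0.879, 1.13 and 1.20 CPM in CD libraries. HFD library number 4 was the highest of its group in both fractions, with 17 of the 24 counts in HFD IP. The log2 fold change of IP over INPUT was -3.21 ± 0.34. It was -3.80 without HFD IP library 4 and -3.56 without both libraries of that number. With any 1 library left out it ran from -3.80 to -2.97.

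Cd8a, at chr6:71373427-71379173, plus strand, encodes the alpha chain of CD8, which marks cytotoxic T cells. It held 0.114, 0.0332, 0.331 and 0.294 CPM in HFD IP and 0.0611, 0.386, 0.169 and 0.283 CPM in CD IP libraries. In INPUT, Cd8a stood at 2.59, 1.84, 2.86 and 4.41 CPM in HFD and 2.22, 2.93, 2.52 and 3.15 CPM in CD libraries. The log2 fold change was -3.67 ± 0.28. Cd8b1, at chr6:71322788-71337494, plus strand, encodes the CD8 beta chain, which T cells use and several other CD8-bearing cells lack. Cd8b1 stood at 0.142, 0.166, 0.0509 and 0.0903 CPM in HFD IP and at 0.153, 0.0227, 0.0678 and 0.283 CPM in CD IP libraries. In HFD INPUT it held 0.875, 1.00, 1.25 and 1.08 CPM and in CD INPUT 0.982, 1.11, 0.904 and 0.702 CPM, with a log2 fold change of -3.04 ± 0.31. Its estimated counts were not whole numbers in any of the 16 libraries, so how its reads were divided with other sequence is uncertain.

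The cytotoxic granule genes are made by CD8 T cells and natural killer cells alike. Gzmb, at chr14:56258838-56262260, minus strand, encodes granzyme B, a protease that starts cell death in the target cell. It held 0.114, 0.0332, 0.102 and 0.0678 CPM in HFD IP libraries and 0, 0, 0 and 0.0630 CPM in CD IP libraries. In HFD INPUT the level was 0.875, 0.904, 0.818 and 0.802 CPM and in CD INPUT 0.545, 0.674, 0.452 and 0.702 CPM. With 14 counts in IP and 192 in INPUT, Gzmb had a log2 fold change of -4.19 ± 0.38, within its error of those of Cd3e and Cd3g. By diet, the log2 ratio of the means was -3.43 in HFD and -5.24 in CD libraries. Leaving out CD IP library 4, which held the only 2 counts of its group, moved the log2 fold change over both diets to -5.36. With any 1 library left out that value ran from -5.36 to -3.96.

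Nkg7, at chr7:43437073-43438249, plus strand, encodes a granule membrane protein needed for efficient killing. Its IP levels were 0.256, 0.232, 0.153 and 0.519 CPM in HFD and 0.244, 0.318, 0.373 and 0.315 CPM in CD libraries. Its INPUT levels were 2.21, 2.81, 3.08 and 4.16 CPM in HFD and 2.22, 2.64, 2.68 and 2.21 CPM in CD libraries. Nkg7 was detected in all 16 libraries, and its log2 fold change was -3.15 ± 0.20.

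Over the 9 genes other than Trac, the median log2 fold change was -3.21, with a range of -4.19 to -1.61, beside a median of -0.02 over the 17592 genes tested. All 10 genes passed the filter on low counts over the 16 libraries, but only Trac, Trbc2 and Nkg7 passed it within the IP libraries, so for the other 7 a lower IP level went with passing the filter, and the median is a description only. Genes of other cell types were lower in IP as well. All 12 microglia and macrophage genes fell (edgeR quasi-likelihood test, adjusted p under 0.05), with a median of -3.61, beside 42.1% of all tested genes that fell and 41.6% that rose. All 5 erythroid genes fell, with a median of -2.38, as did 10 of 10 neuronal genes, with a median of -1.35, and 7 of 8 oligodendrocyte genes, with a median of -3.60. Of 6 immunoglobulin and B cell genes tested, 4 fell and none rose, but only 1 of the 6 passed the filter within the IP libraries. All 10 endothelial genes rose, with a median of 2.20, and all 10 astrocyte genes, with a median of 2.94. Within the IP libraries, 11 of the 12 microglia and macrophage genes and 4 of the 5 erythroid genes passed the filter. Within INPUT, 9 of the 10 endothelial genes did. For the genes that did not, the direction went with passing the filter, so those calls are a description only. The part of these cell types in the levels of Trac and of the other T cell genes was not tested.

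Ordered by mean level per kilobase of annotated exon, Trac led in IP and Trbc2 in INPUT. In IP, Trac stood at 28.8 ± 4.84 CPM per kilobase, Trbc2 at 2.19 ± 0.343 and Nkg7 at 0.330 ± 0.121 (SD, n = 8 each). The other 7 genes lay between 0.00757 CPM per kilobase for Cd3g and 0.0822 for Cd8b1, and no neighbours among them differed by more than the SD of both. In INPUT, Trbc2 was first with 6.71 ± 1.06 CPM per kilobase, followed by Trac with 5.39 ± 0.701, a gap larger than the SD of either, and by Nkg7 with 3.01 ± 0.716 (SD, n = 8 each). Below these came Cd8a with 0.774 ± 0.211, Cd8b1 with 0.667 ± 0.113, Cd3e with 0.504 ± 0.120, Gzmb with 0.502 ± 0.111, Cd4 with 0.318 ± 0.137, Cd3d with 0.224 ± 0.0797 and Cd3g with 0.147 ± 0.0609. Among these 7, the steps from Cd8b1 to Cd3e and from Gzmb to Cd4 were larger than the SD of both neighbours, and the other steps were not.

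**Figure D2:**
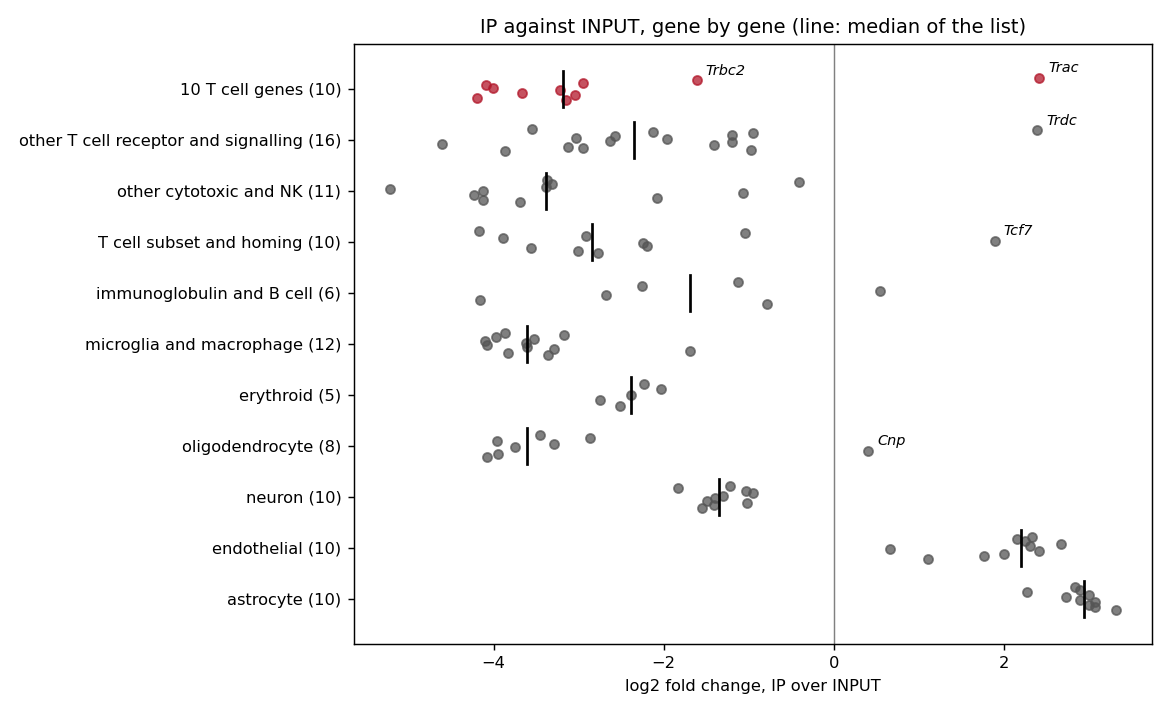
Log2 fold change of IP over INPUT for the 10 T cell genes (red) and for genes of other lists (grey), with the number of genes tested in brackets and each list's median as a line. Trac, at 2.41, sits within the range of the endothelial genes (0.66 to 2.67) and of the astrocyte genes (2.27 to 3.32), while the other 9 T cell genes lie between -4.19 and -1.61.

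Of the further receptor and signalling genes, 16 of 20 could be tested, and 15 fell and 1 rose (edgeR, adjusted p under 0.05). Lcp2, a signalling adaptor of T cells and myeloid cells, held 2.14 ± 0.513 CPM in HFD IP and 1.46 ± 0.0927 CPM in CD IP, against 15.3 ± 1.98 CPM in HFD INPUT and 13.8 ± 1.29 CPM in CD INPUT (SD, n = 4 each). The pan-leukocyte phosphatase Ptprc had a log2 fold change of -3.86 ± 0.24, the receptor zeta chain gene Cd247 of -2.13 ± 0.29 and the adaptor Sh2d1a of -4.61 ± 0.32. The gene that rose was Trdc. Among 18 cytotoxic and natural killer genes, 11 were tested, and 10 fell and none rose. The chemokine Ccl5 was the most abundant, with a log2 fold change of -2.07 ± 0.15, and Cst7 fell by 4.13, Klrc1 by 4.22 and Klrg1 by 1.07 on the log2 scale. Of 14 subset and homing genes, 10 were tested, and 9 fell, Foxp3 by 2.20, Gata3 by 2.24 and Cd27 by 1.04 on the log2 scale. The transcription factor gene Tcf7 was the exception: it rose by 1.89 ± 0.13, with 5.03 ± 0.623 CPM in HFD IP and 5.62 ± 1.43 CPM in CD IP, against 1.69 ± 0.188 CPM in HFD INPUT and 1.20 ± 0.292 CPM in CD INPUT (SD, n = 4 each). Tcf7 is used by T cells and also acts in Wnt signalling outside them. Within the IP libraries alone, 9 of the 16 receptor and signalling genes, 2 of the 11 cytotoxic genes (Ccl5 and Klrg1) and 2 of the 10 subset genes (Cd27 and Tcf7) passed the filter on low counts. For the remaining genes, Foxp3 and Gata3 among them, a lower IP level went with passing the filter, so these counts are a description only.

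Among the receptor constant segments, Trac and Trdc of the alpha and delta locus were higher in IP, and those of the beta and gamma loci were lower. Trdc, at chr14:54142851-54148868, encodes the constant region of the delta chain and lies 71.7 kb from Trac on its centromeric side. It held 1.79 ± 0.523 CPM in HFD IP and 1.40 ± 0.815 CPM in CD IP libraries, against 0.273 ± 0.0760 CPM in HFD INPUT and 0.339 ± 0.174 CPM in CD INPUT libraries (SD, n = 4 each). Its log2 fold change of 2.39 ± 0.29 (adjusted p = 5.6e-08, edgeR) was close to the 2.41 of Trac. Per kilobase of annotated exon, Trdc reached 0.413 CPM in IP, against 28.8 for Trac. The gamma constant segment Tcrg-C2 fell by 3.97 on the log2 scale (SE 0.48), and over the 4 gamma constant segments the summed level was 0.0421 ± 0.0602 CPM in IP and 0.788 ± 0.175 CPM in INPUT (SD, n = 8 each). Tcrg-C2 held 0 to 5 counts in the IP libraries and passed the filter on low counts through INPUT, so its fall is a description only.

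Variable segments of the same locus were, in sum, lower in IP. The 115 alpha and delta variable segments together held 0.372 ± 0.167 CPM in IP and 1.31 ± 0.175 CPM in INPUT libraries (SD, n = 8 each), and the ranges, 0.169 to 0.641 CPM in IP and 0.968 to 1.58 CPM in INPUT, did not overlap. These sums rest on 116 counts in IP and 355 in INPUT, while Trac had 7759 counts in IP and 1341 in INPUT. The 53 joining segments of the locus held 18 counts in IP and 9 in INPUT, and both diversity segments none in either. Of the 8 variable segments with the most counts, Trav9d-4 was the 1 not lower in IP, with 28.8 counts in IP and 25.1 in INPUT. The beta variable segments held 9 counts in IP and 79 in INPUT, and the gamma variable segments 3 in IP and 65 in INPUT. How reads that span spliced segments were assigned is not given in the sources used here.

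**Figure D3:**
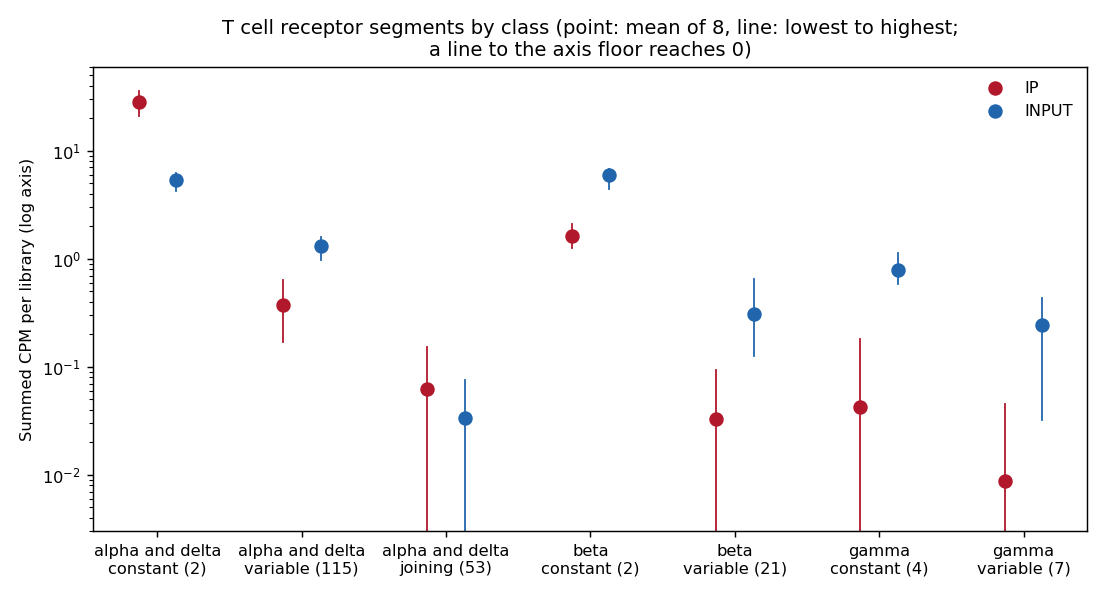
Summed CPM of the T cell receptor segments by locus and class on a log axis, with the number of segments in brackets; points are means of 8 IP (red) and 8 INPUT (blue) libraries and lines run from the lowest to the highest library. IP is above INPUT in the alpha and delta constant class, at 28.5 CPM in IP and 5.34 CPM in INPUT, and below it in every variable class.

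The genes next to Trac on the telomeric side were also higher in IP. Dad1, a subunit of the complex that attaches sugar chains to proteins, lies 11.3 kb from Trac and held 73.4 ± 2.82 CPM in HFD IP and 71.3 ± 9.79 CPM in CD IP, against 34.8 ± 1.27 CPM in HFD INPUT and 34.3 ± 2.02 CPM in CD INPUT (SD, n = 4 each). Its log2 fold change was 1.06 ± 0.05. Abhd4, a lipid hydrolase gene 30.0 kb from Trac, held 412 ± 36.5 CPM in HFD IP and 422 ± 24.1 CPM in CD IP, against 56.0 ± 6.03 CPM in HFD INPUT and 58.4 ± 3.68 CPM in CD INPUT (SD, n = 4 each), a log2 fold change of 2.87 ± 0.06. On the centromeric side, beyond the variable segments, the nearest protein-coding genes were the odorant receptor genes Olfr1508 and Olfr1507, which held 0 counts in IP and 2 and 0 counts in INPUT. A link between the levels of Trac and of these neighbours was not tested.

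Among the 5 genes whose profile over the 16 libraries was most like that of Trac were Cmtm5, Cd302, Rab29 and Baalc. Likeness was the root mean square difference of log2(CPM + 0.5) values, each gene centred on its own mean, and ran from 0.149 for Cmtm5 to 0.165 for Baalc, with a median of 1.19 over the 17591 other genes. None of these is a T cell receptor gene: Rab29 is a small GTPase and Cd302 a C-type lectin receptor. Their log2 fold changes of IP over INPUT were 2.31 for Cmtm5, 2.35 for Cd302, 2.29 for Rab29 and 2.41 for Baalc. The endothelial genes Pecam1, Flt1 and Cldn5 differed from Trac by 0.280, 0.379 and 0.537, and the astrocyte genes Aldoc, Slc1a2 and Ndrg2 by 0.334, 0.429 and 0.472. The neighbours Abhd4 and Dad1 differed from it by 0.351 and 0.654, Trdc by 0.569 and Trbc2 by 1.84. Of all genes, 307 were closer to Trac than Pecam1 and 1660 closer than Trdc. The added 0.5 CPM shrinks the step between IP and INPUT for genes of low level, which enlarges their difference from Trac. Trdc, at 1.60 CPM in IP and 0.306 CPM in INPUT, is such a gene, and its log2 fold change was 2.39 against 2.41 for Trac. The profiles include the step between IP and INPUT that the choice of Trac used, so the likeness is a description.

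Diet was then compared within IP, where HFD and CD libraries form separate pools. Trac stood at 29.9 ± 3.69 CPM in HFD IP and 24.0 ± 3.32 CPM in CD IP (SD, n = 4 each), and the groups overlapped, since HFD IP libraries 1 and 4, at 26.8 and 26.6 CPM, lay below CD IP library 2, at 27.6 CPM; 6.24% of all genes tested had groups that did not overlap. The log2 fold change of HFD over CD was 0.33 ± 0.10 (adjusted p = 0.224, edgeR, over the 15858 genes tested) and did not pass. Without the filter on low counts the adjusted p was 0.0155, the 1 of 13 alternatives in which Trac passed; over all of them the adjusted p ran from 0.0155 to 0.521. In the whole comparison 14 genes passed, 0.0883% of those tested. Between the diets, a different number of cells and a different amount of RNA per cell cannot be told apart in such bulk samples.

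Only Trbc2 and Nkg7 of the other 9 genes had enough IP counts to be tested for diet. Trbc2 held 1.48 ± 0.185 CPM in HFD IP and 1.55 ± 0.306 CPM in CD IP, and Nkg7 0.290 ± 0.159 CPM in HFD IP and 0.312 ± 0.0526 CPM in CD IP (SD, n = 4 each). Their log2 fold changes were -0.06 ± 0.22 and -0.05 ± 0.42, with adjusted p = 0.943 for Trbc2 and 0.975 for Nkg7 (edgeR). None of the 3 genes tested passed with edgeR, and 1, Trac, had an unadjusted p under 0.05, beside 1831 of all 15858 genes tested. DESeq2 gave Trac an adjusted p of 0.108, which did not pass, and gave none for Trbc2 and Nkg7. The remaining 7 genes are given as ratios of summed counts with counting intervals. Gzmb had 12 counts in HFD IP and 2 in CD IP, a ratio of 5.56 (95% interval 1.24 to 51.2, counting error only). Both CD counts came from 1 library. The fit without the filter on low counts includes the spread between libraries. It gave Gzmb a log2 fold change of 2.20 ± 1.22 (adjusted p = 0.564, edgeR), which did not pass. Cd4 had 24 counts in HFD IP and 16 in CD IP, with 17 of the HFD counts from 1 library, and Cd8a had 31 in HFD IP and 33 in CD IP. Their intervals, 0.709 to 2.80 for Cd4 and 0.516 to 1.47 for Cd8a, include no change, as do those of Cd3d, Cd3e, Cd3g and Cd8b1.

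In INPUT all 10 genes could be tested, and none passed with edgeR or DESeq2, nor had any an unadjusted p under 0.05; 6 of 16879 genes passed in the whole comparison, 0.0355%. Gzmb was the 1 gene whose groups did not overlap, with 0.802 to 0.904 CPM in HFD INPUT and 0.452 to 0.702 CPM in CD INPUT, beside 4.54% of all tested genes. Its log2 fold change was 0.50 ± 0.26 with adjusted p = 0.702 (edgeR). Nkg7 had a log2 fold change of 0.35 ± 0.18 with the same adjusted p, and Trac of 0.15 ± 0.13 with adjusted p = 0.833 (edgeR). Positive values were found for 9 of the 10 genes, beside 8545 of all 16879 genes tested, with Cd3e the exception at -0.07 ± 0.22. Of the 9 genes other than Trac, HFD INPUT libraries 1 to 3 were each the highest of the group for 1, and library 4 for 6. Without it the log2 fold change of Cd4 turned to -0.18, against 0.32 ± 0.31 with it, that of Cd8a to -0.16, against 0.12 ± 0.22, and that of Cd3g to -0.24, against 0.06 ± 0.41.

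**Figure D4:**
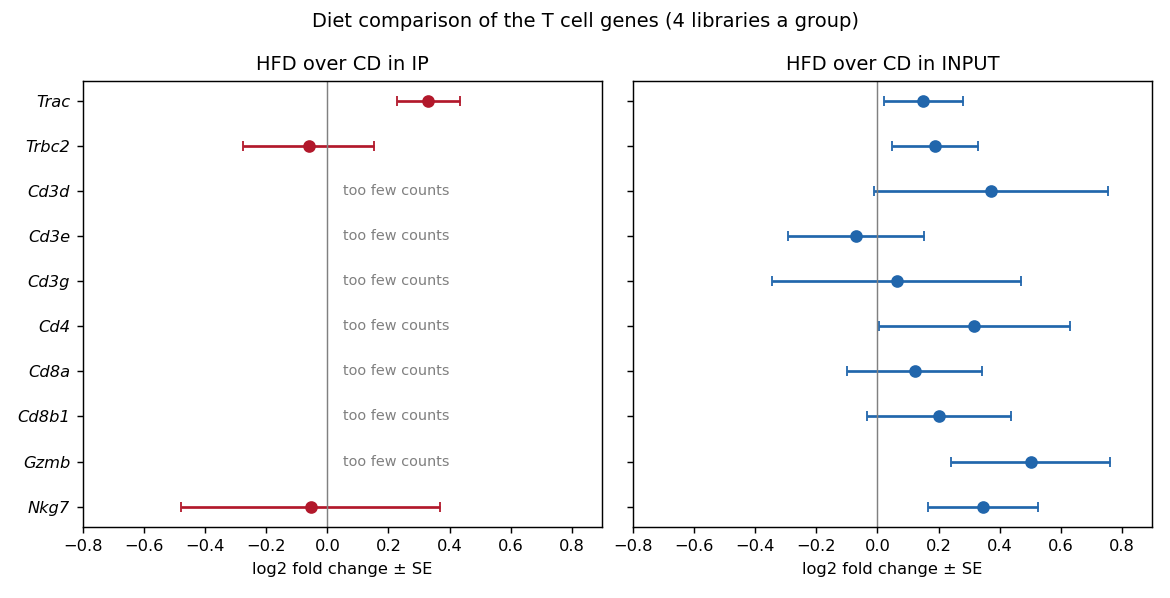
Log2 fold change of HFD over CD with its SE for each gene in IP (left) and INPUT (right), 4 libraries a group; 7 genes had too few counts in IP to be tested. Trac in IP, at 0.33, lies farthest from 0 relative to its SE, and it did not pass after adjustment.

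The difference between both diet effects was tested over all 16 libraries. For Trac it was 0.16 ± 0.17 on the log2 scale (edgeR, adjusted p = 1.00), so that a larger diet effect in IP than in INPUT was not shown. None of the 10 genes passed with edgeR or DESeq2 or had an unadjusted p under 0.05, and the largest difference was that of Gzmb, 1.70 ± 0.89. Over all 17592 genes 0 passed with edgeR (0%), 4 passed with DESeq2, 1 passed with the library number as a block and 755 had an unadjusted p under 0.05. The 52 genes of the other T cell lists likewise gave no call for diet with either tool: 13 were tested in IP, of which Lcp2 and Ccl5 had an unadjusted p under 0.05, and 37 in INPUT, of which Klrk1, Cst7 and Tcf7 did, beside 1831 of all 15858 genes tested in IP and 1258 of 16879 in INPUT. For the difference between both effects, 4 of 37 had one, Tcf7, Lcp2, Klrk1 and Cst7.

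Summed, the 9 genes other than Trac held 2.13, 2.19, 2.47 and 3.09 CPM in HFD IP libraries 1 to 4, and 2.20, 2.93, 2.30 and 2.80 CPM in CD IP libraries. In INPUT the sums were 15.3, 14.2, 16.7 and 22.7 CPM in HFD and 14.9, 17.0, 13.3 and 15.3 CPM in CD libraries. The highest sum in both HFD fractions was that of library number 4. By gene, HFD IP library 4 was the highest of its group for 4 of the 9, library 3 for 3, and libraries 1 and 2 for 1 each. The share over all genes is not given for such counts. Trac was not highest in HFD library 4. HFD library 4 had the lowest Trac level of the HFD IP libraries, 26.6 CPM, close to the 26.8 CPM of library 1. Of the HFD INPUT libraries it had the second highest, 5.57 CPM. The sum over the 18 other cytotoxic and natural killer genes was also highest in that number, which does not hold for each gene: Ccl5 made up 5.88 of the mean sum of 7.03 CPM in HFD IP. The summed level was 10.3 CPM in HFD IP library 4, against 4.80 to 6.54 CPM in the other 3 HFD IP libraries, and 42.0 CPM in HFD INPUT library 4, against 25.6 to 29.1 CPM in the other 3 HFD INPUT libraries.

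**Figure D5:**
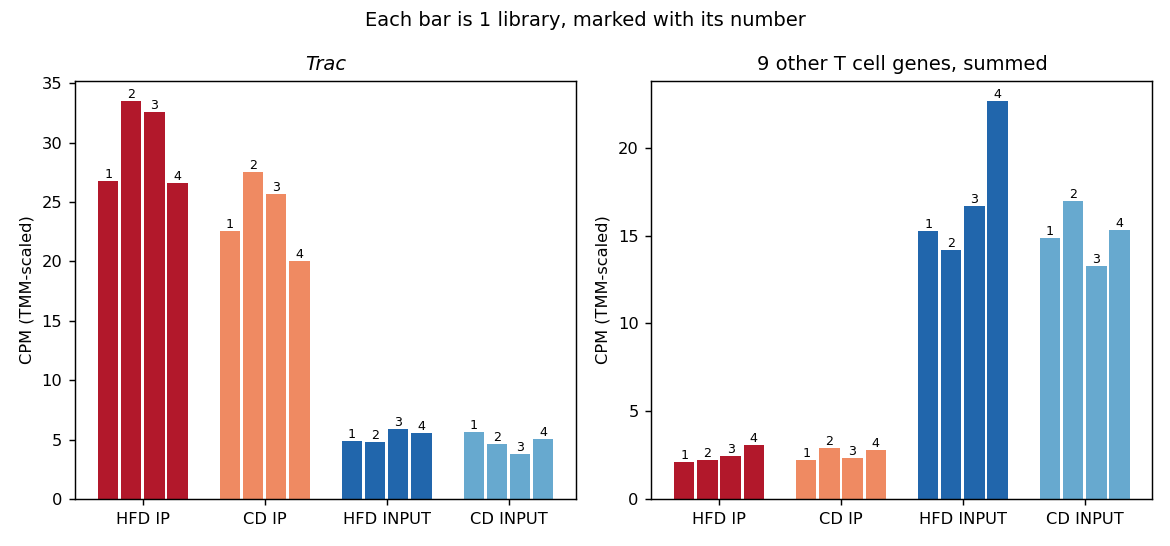
CPM of Trac (left) and the summed CPM of the other 9 T cell genes (right) in each library, marked with its number; bars start at 0. The 9 genes reach 22.7 CPM in HFD INPUT library 4 and stay under 3.1 CPM in IP, while Trac is 20.1 CPM or more in every IP library.

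In cEND cells, a cultured line, Trac and 6 of the other genes were at or near 0. Trbc2, Cd3e, Cd3g, Gzmb and Nkg7 had 0 counts in all 9 libraries, which allows 0.0727 to 0.110 CPM in a single library. Trac had 0 to 4 counts a library, 7 in all, and up to 0.146 CPM, scaled to the raw total of the library. Cd4 had 2 counts, both in 1 library. Cd3d, Cd8a and Cd8b1 were detected in every library, at 0.222 to 0.495 CPM for Cd3d, 0.0529 to 0.493 CPM for Cd8a and 0.156 to 0.553 CPM for Cd8b1. The estimated counts of Cd3d and Cd8b1 were not whole in any of the 9 libraries, so how their reads were divided with other sequence is uncertain. These levels come from a separate table and were not compared by a test with those of the hypothalamus; no comparison between WZB117 and DMSO was made at such counts.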

How the data were processed

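RNA was sequenced from 16 hypothalamus libraries and 9 cEND libraries. For both tables an estimated count per Ensembl gene was deposited by the authors, not scaled to a common total; the reads were mapped to GRCm38, per the submitters' processing notes, and the program and annotation release are not given in the sources used here. Counts were not whole for 17.3% of the hypothalamus values and were rounded for fitting. Symbols, positions and exon lengths came from GENCODE release M21, and sequences from RefSeq GRCm38.

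Counts were fitted with edgeR 4.0.16 in R 4.3.3 (TMM, filterByExpr by group, robust quasi-likelihood, Benjamini-Hochberg adjustment over all genes tested, 2-sided, threshold 0.05). IP against INPUT and diet by fraction used a means model of the 4 groups over 16 libraries, and each diet comparison its own 8 libraries. CPM used the 16-library TMM factors. Alternatives were DESeq2 1.42.0 and its size factors, no low-count filter, no ribosomal and mitochondrial RNA, a block for the library number and leaving out each library. The scripts were tested on simulated counts. No 2 libraries of a group agreed within sampling noise (lowest chi-square per degree of freedom 9.08). The genes and lists were chosen with earlier results of these data known. Named were the 10 genes, up to 4 most abundant genes of each other list and any passing a diet test, the receptor segments, the neighbours of Trac and the 5 genes with the most similar profile, of which 1 is not reported here; Klrk1 was named after its values were seen. Intervals and floors cover counting error only.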

Additional observations from a re-analysis of the deposited data

Results flagged for a closer look

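A single library stood apart from the other 3 of its group, by Dixon's ratio at the 95% level, in 4 of 44 sets of values examined; chance alone gives about 1 in 20. Cd4 stood at 0.384 CPM in HFD IP library 4, against 0.0568 to 0.0763 CPM in the other HFD IP libraries, and at 2.58 CPM in HFD INPUT library 4, against 0.904 to 1.18 CPM in the other HFD INPUT libraries. Both libraries carry the same number. Gzmb stood at 0.0630 CPM, or 2 counts, in CD IP library 4, and at 0 in the other CD IP libraries. With those at 0, any count in library 4 would have been flagged, so this flag carries no information. Cd3g stood at 0.161 CPM, or 5 counts, in CD INPUT library 3, against 0.557 to 0.598 CPM in the other CD INPUT libraries. No explanation was tested.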

How the results depend on the processing

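For IP against INPUT, the direction of all 10 genes and the count of genes passing (14724) kept within 1.5 times under every alternative; Trac ran from 2.37 to 2.45 and Trbc2 from -1.68 to -1.55 with 1 library left out. With CPM of raw totals the log2 ratio of Trac was 2.73 in HFD and 2.56 in CD, and without ribosomal and mitochondrial RNA 2.22 in HFD and 2.02 in CD, against 2.498 in HFD and 2.325 in CD with TMM-scaled CPM.

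The counts of genes passing for diet depended on the settings, and the cause was not tested. In IP, 14 genes passed, against 200 with DESeq2, 398 with no low-count filter and 5 to 50 with 1 library left out. In INPUT, 6 passed, against 52 with DESeq2, 116 with no filter and 2 to 17 with 1 library left out. For the difference between both effects, 0 passed, against 4 with DESeq2, 1 with no filter and 0 to 1 with 1 library left out. Trac in IP passed only with no filter (adjusted p = 0.0155, edgeR).

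Across diets the libraries came from separate pools and were not paired by number in the main fit. Whether a number marks a shared batch there is not stated by the labels. Same-numbered libraries correlated in their deviations from the group mean at 0.00545 to 0.0472 for HFD IP with CD IP. For HFD INPUT with CD INPUT the correlations were 0.0523 to 0.136. In these, 1 and 3 of 4 libraries correlated best with their own number. Between fractions a number may mark the same lysate, which the labels do not state. There the correlations were 0.0171 to 0.193 for HFD IP with HFD INPUT and 0.101 to 0.184 for CD IP with CD INPUT, and 3 and 4 of 4 libraries correlated best with their own number. With the number as a replicate block, 14837 genes passed for IP against INPUT, with a log2 fold change of 2.40 for Trac; 52 passed for diet in IP, 43 in INPUT and 1 for the difference, none of these a T cell gene of the 10; the difference of Cd4 turned to -0.089.

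Without both libraries of HFD number 4, chosen after seeing the data, the difference of diet effects turned to -0.69 for Cd3g and -0.59 for Cd4. With 1 library left out, log2 fold changes that turned sign ran as follows, none of them called. In IP, Trbc2 ran from -0.16 to 0.065 and Nkg7 from -0.54 to 0.16. In INPUT, Cd3e ran from -0.27 to 0.10, Cd3g from -0.24 to 0.24, Cd4 from -0.18 to 0.48 and Cd8a from -0.16 to 0.29. The difference ran from -0.99 to 0.77 for Cd3d, -0.86 to 0.60 for Cd3e, -0.99 to 1.30 for Cd3g, -1.07 to 0.59 for Cd4, -0.66 to 0.14 for Cd8a and -0.82 to 0.29 for Cd8b1. Depth limits the 7 genes with under 70 counts over all IP libraries.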

Other observations

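Of the marker lists, the immunoglobulin and B cell list and the astrocyte list each held 1 gene that passed a diet test in IP. Only 1 of the 15 immunoglobulin and B cell genes, Ighm, could be tested there, against 10 of 10 astrocyte genes. Over all genes tested in IP, 14 of 15858 passed (0.0883%), or 5 to 50 with 1 library left out. Ighm, the heavy chain constant segment of IgM, stood at 15.8 ± 1.41 CPM in HFD IP and 10.0 ± 1.26 CPM in CD IP (SD, n = 4 each), a log2 fold change of 0.68 ± 0.10 (edgeR, adjusted p = 0.0129). In INPUT it stood at 30.9 ± 2.35 CPM in HFD and 24.5 ± 4.11 CPM in CD libraries (SD, n = 4 each), with a log2 fold change of 0.33 ± 0.10 (edgeR, adjusted p = 0.508). The difference between both effects was 0.33 ± 0.15 (edgeR, adjusted p = 1.00). Ighm fell in IP against INPUT by 1.13 on the log2 scale, and the light chain gene Igkc by 4.16. Agt, which encodes angiotensinogen and is made by astrocytes in the brain, stood at 203 ± 25.8 CPM in HFD IP and 299 ± 31.0 CPM in CD IP (SD, n = 4 each), a log2 fold change of -0.54 ± 0.09 (edgeR, adjusted p = 0.0321). Its INPUT levels were 21.7 ± 0.974 CPM in HFD and 28.1 ± 3.32 CPM in CD libraries (SD, n = 4 each), with a log2 fold change of -0.38 ± 0.08 (edgeR, adjusted p = 0.111). The neutrophil genes had too few counts to be tested, at a summed 0.0281 to 0.576 CPM on average per group.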
